A study of Mus musculus with 20 samples.

Results

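Pck1 and 7 further genes of gluconeogenesis were followed through mouse liver RNA sequencing of 20 animals. The genes were taken by symbol from the deposited count table: Pck1, Pck2, Pcx, Fbp1, G6pc, G6pc3, Slc37a4 and the coactivator gene Ppargc1a, 8 of 46095 symbols. All 8 had a row in the table, and all 8 passed the filter on low counts that left 14440 genes for testing. The study asked what Pck1 does in diet-induced non-alcoholic steatohepatitis (NASH). It compared whole livers of wild-type (WT) mice and of mice labelled Pck1-cKO, a liver-specific Pck1 knockout (KO here), on a chow or a NASH diet, with 5 mice in each of the 4 groups. All mice were 31 to 33 weeks old and had received their diet for 24 weeks. The labels give neither strain nor sex, and neither the Cre driver nor the deleted exons are given in the sources used here.

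Gluconeogenesis makes glucose from lactate, alanine, glycerol and other precursors, and in fasting the liver is its main site. Pyruvate carboxylase (Pcx) turns pyruvate into oxaloacetate in mitochondria, and phosphoenolpyruvate carboxykinase turns oxaloacetate into phosphoenolpyruvate, in the cytosol (Pck1) or in mitochondria (Pck2). Fructose-1,6-bisphosphatase (Fbp1) bypasses phosphofructokinase, and glucose-6-phosphatase (G6pc in liver, G6pc3 in most tissues) frees glucose inside the endoplasmic reticulum, to which the transporter Slc37a4 brings glucose-6-phosphate. Glucagon raises the transcription of several of these genes through cyclic AMP and the factor CREB. Insulin lowers this transcription through loss of FOXO1 from the nucleus. Ppargc1a encodes the coactivator PGC-1alpha, which works with FOXO1.

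Promoter sequences are shown for the 3 genes that respond most directly to these signals in textbook accounts, so that the letters the factors are known to read can be seen beside the RNA levels. Each is the 250 bases before the RefSeq transcription start in build GRCm38.p6, written 5′ to 3′ on the strand of the gene. Capitals mark CGTCA, the core of the cyclic AMP response element, and TGTTT, the core of the forkhead (FOXO) site, or their reverse complements TGACG and AAACA. The windows are chr2:173152823-173153072 on the plus strand for Pck1, chr11:101367466-101367715 on the plus strand for G6pc and chr5:51567726-51567975 on the minus strand for Ppargc1a.
Pck1: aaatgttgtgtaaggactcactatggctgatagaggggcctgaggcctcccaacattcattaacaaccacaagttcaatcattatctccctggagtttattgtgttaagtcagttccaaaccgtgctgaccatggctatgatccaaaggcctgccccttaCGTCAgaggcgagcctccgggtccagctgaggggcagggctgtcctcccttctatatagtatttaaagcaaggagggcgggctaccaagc
G6pc: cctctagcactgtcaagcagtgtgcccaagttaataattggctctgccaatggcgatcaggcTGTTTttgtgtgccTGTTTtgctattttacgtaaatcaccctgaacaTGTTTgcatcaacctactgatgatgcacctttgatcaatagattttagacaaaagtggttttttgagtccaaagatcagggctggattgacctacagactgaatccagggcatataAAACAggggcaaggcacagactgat
Ppargc1a: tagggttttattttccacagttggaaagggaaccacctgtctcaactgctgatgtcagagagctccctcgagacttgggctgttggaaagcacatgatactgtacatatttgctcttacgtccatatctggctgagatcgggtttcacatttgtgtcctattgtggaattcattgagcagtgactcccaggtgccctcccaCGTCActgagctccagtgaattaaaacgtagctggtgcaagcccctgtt
Pck1 held 1 CGTCA, whose first base lay at position -90 from the start, and it formed part of the longer TTACGTCA. G6pc held 4 copies of TGTTT or its complement and no CGTCA. Only the sequences named here were searched, so an element spelled otherwise is neither marked nor counted. Ppargc1a held 1 CGTCA at position -49. Counting both strands, CGTCA occurred in 17.8% of 32851 RefSeq promoters of the same length, TTACGTCA in 0.447% and TGTTT in 46.4%. A match of letters is a description only, and whether any factor binds there was not measured.

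The depth was 9958935 to 20601955 counts per library. Values are CPM, counts relative to the TMM-scaled library size, and levels of different genes are compared only per kilobase of the gene's principal transcript in GENCODE M21. Read from Y-linked genes and Xist, 13 mice were male and 7 female: all 5 of WT chow were male, as were 1 of WT NASH (replicate 4), 3 of KO chow (all but replicates 3 and 5) and 4 of KO NASH (all but replicate 2). In 6 libraries (WT chow replicates 3, 4 and 5, WT NASH replicate 4, KO chow replicates 4 and 5) expression fell with gene length relative to the mean of all libraries, with a slope of -0.34 to -0.25, while the other 14 had slopes of 0.0098 to 0.19. KO NASH held none of these 6 libraries. KO NASH replicates 1 and 5 were the most alike of the 40 pairs within groups, with a median chi-square per gene of 1.51 against 0.455 from sampling alone. They differed by more than sampling noise and were counted as 2 samples. Hepatocyte markers summed to 53473 to 135945 CPM over the libraries, and 1 of 7 was called lower in KO on each diet. Markers of kidney, another tissue rich in these enzymes, summed to at most 0.237 CPM, with Kap, Aqp2 and Slc12a1 at 0 throughout. Pck1 is also expressed in adipose tissue, whose markers summed to 3.83 to 26.96 CPM in WT chow, WT NASH and KO chow and 31.3 to 134 CPM in KO NASH, with Lep at 0 throughout, and the 2 that could be tested rose in KO NASH against WT NASH. In whole-liver RNA, fewer cells of a type and less RNA per cell cannot be told apart.

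Pck1 lies on chromosome 2 at 173153048 to 173159273 (GRCm38, plus strand, protein coding), and no other annotated gene overlaps it. WT mice on chow (replicates 1 to 5) had levels of 4242, 4641, 3406, 1707 and 3871 CPM. In WT NASH they were at 2543, 1888, 2975, 1701 and 2344 CPM. In KO chow the values were 523, 458, 861, 762 and 528 CPM, and in KO NASH 515, 518, 348, 300.4 and 542 CPM. Every KO liver was below every WT liver on either diet, while the WT groups overlapped each other, as did the KO groups. The highest KO chow library (replicate 3) had 50.4% of the level of the lowest WT chow library (replicate 4), and on the NASH diet the highest KO library (replicate 5) had 31.9% of the lowest WT library (replicate 4).

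Pck1 was called lower in KO on both diets, which is the check of the genotype labels. The log2 fold change was -2.51 on chow (SE 0.291, 95% interval -3.12 to -1.91, edgeR adjusted p = 0.00011) and -2.36 on the NASH diet (SE 0.289, 95% interval -2.97 to -1.76, edgeR adjusted p = 6.13e-05). Females alone, with 1 KO NASH liver, gave -2.21 for the NASH diet, which was not called (edgeR adjusted p = 0.176, with alternatives between 2.19e-16 and 0.176). The difference between the diets, the interaction, was 0.15 with a 95% interval of -0.66 to 0.96. The deposited counts are per gene, so they do not tell which exons the 5602 to 17391 Pck1 reads of each KO library cover. Pck1 was not the most lowered gene: 80 of the 14440 tested genes had a lower log2 fold change on chow and 173 on the NASH diet. Periportal hepatocyte markers, which share the zone of Pck1 in the lobule, had 0 of 7 called by edgeR in either genotype comparison. Of 7 pericentral markers, 1 was called lower in KO chow and 3 in KO NASH, and the part of zonation in the Pck1 difference was not tested.

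**Figure D1:**
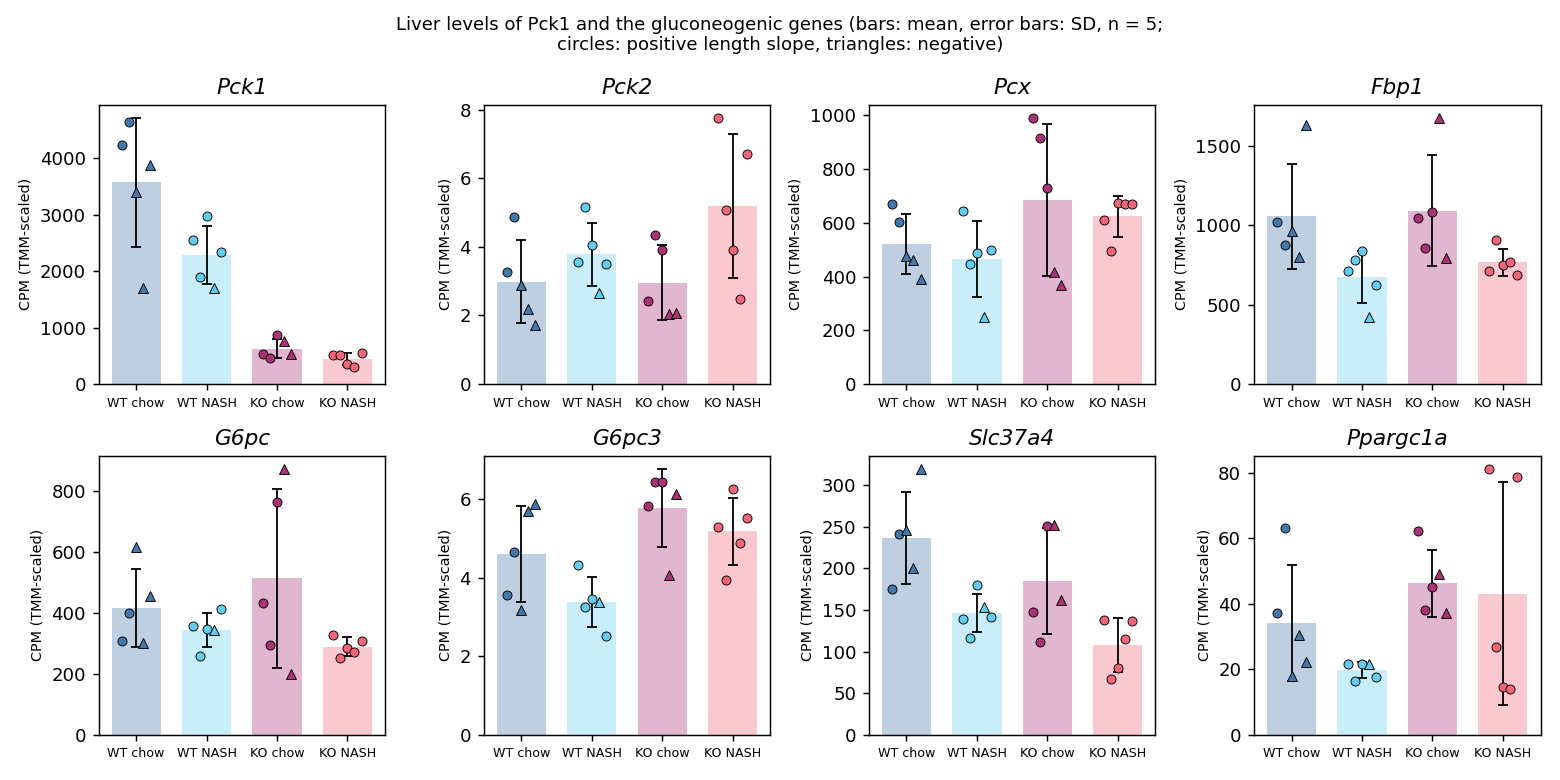
Levels of the 8 genes in CPM (vertical axes, from 0) in the 4 groups; bars are means, error bars SD over 5 livers, circles libraries with a positive and triangles with a negative length slope. For Pck1 the 10 KO points lie at 300.4 to 861 CPM and the 10 WT points at 1701 to 4641 CPM; for the other 7 genes the groups overlap in each of the 4 comparisons.

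The order of the genes changed with genotype. Per kilobase, Pck1 ranked first in WT chow at 1343 ± 428 CPM and in WT NASH at 861 ± 192 CPM (SD, n = 5), followed by Fbp1 at 714 ± 223 and 454 ± 109 CPM. Pck1 exceeded Fbp1 in 10 of 10 WT livers and in 0 of 10 KO livers. In KO chow Fbp1 came first at 737 ± 235 CPM per kilobase, and Pck1 at 235 ± 65.6 CPM came close to G6pc at 213 ± 121 CPM and Pcx at 169 ± 69.8 CPM. These last 3 overlapped as neighbours in that order. In KO NASH the order was Fbp1 at 517 ± 58.5, Pck1 at 167 ± 42.1, Pcx at 154 ± 18.9 and G6pc at 119.8 ± 12.5 CPM per kilobase, where Pck1 exceeded Pcx in 3 of 5 livers. Slc37a4 followed these enzymes in each group, at 45.9 to 101 CPM per kilobase on average. The lower end was the same in each group: Ppargc1a at 3.05 to 7.17, G6pc3 at 2.15 to 3.68 and Pck2 at 0.638 to 1.12 CPM per kilobase, as group means.

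Pck2, the mitochondrial isoenzyme, stayed at a low level. It lies on chromosome 14 at 55540266 to 55551242 (plus strand), where the opposite-strand gene Gm10876 overlaps it, and the sources used here do not say whether strand was used in counting. The 5 WT chow livers were at 3.26, 4.87, 2.89, 2.18 and 1.73 CPM, and WT NASH livers were at 3.55, 5.16, 4.06, 2.65 and 3.49 CPM. KO chow had 2.41, 4.34, 3.91, 2.03 and 2.07 CPM, and KO NASH 7.76, 5.09, 3.91, 2.49 and 6.71 CPM. The groups overlapped in each comparison, and KO NASH replicates 1 and 5 were the highest of all 20 livers. Each value rested on 18 to 182 counts. KO NASH exceeded KO chow by 0.81 (log2, SE 0.327, 95% interval 0.13 to 1.49, edgeR adjusted p = 0.158), which did not pass the threshold. KO against WT gave -0.02 on chow (95% interval -0.73 to 0.69) and 0.45 on the NASH diet (95% interval -0.23 to 1.13). As a share of Pck1 and Pck2 together per kilobase, Pck2 averaged 0.0505% (WT chow) and 0.0981% (WT NASH), against 0.289% (KO chow) and 0.649% (KO NASH). The principal transcripts used were 2661 bases for Pck1 and 4625 bases for Pck2. At these lengths Pck1 made up over 99% of the sum in each of the 20 livers. A shorter Pck2 transcript would raise its share, and KO NASH replicate 1 had 12080 Pck1 and 182 Pck2 counts.

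Of the 8 genes, Pck1 was the only one called in KO chow against WT chow, where 5.53% of all tested genes were called (3.03% higher, 2.49% lower), and the only one in KO NASH against WT NASH, where 9.65% were (4.9% higher, 4.74% lower). It was also the only one of the 8 whose groups did not overlap in these comparisons, against 4.91% of all genes on chow and 14.1% on the NASH diet. At an unadjusted p under 0.05 the counts were 1 and 3. DESeq2 called 1 and 2, where it called 9.63% and 15.2% of all genes. limma voom with quality weights called 2 and 2, where it called 40.4% and 23.8% of all genes. The median log2 fold change of the 8 was 0.17 on chow and 0.30 on the NASH diet, beside 0.0013 and 0.0039 for all genes. The other 7 genes ranged from -0.36 (Slc37a4) to 0.44 (Ppargc1a) on chow and from -0.44 (Slc37a4) to 1.13 (Ppargc1a) on the NASH diet.

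**Figure D2:**
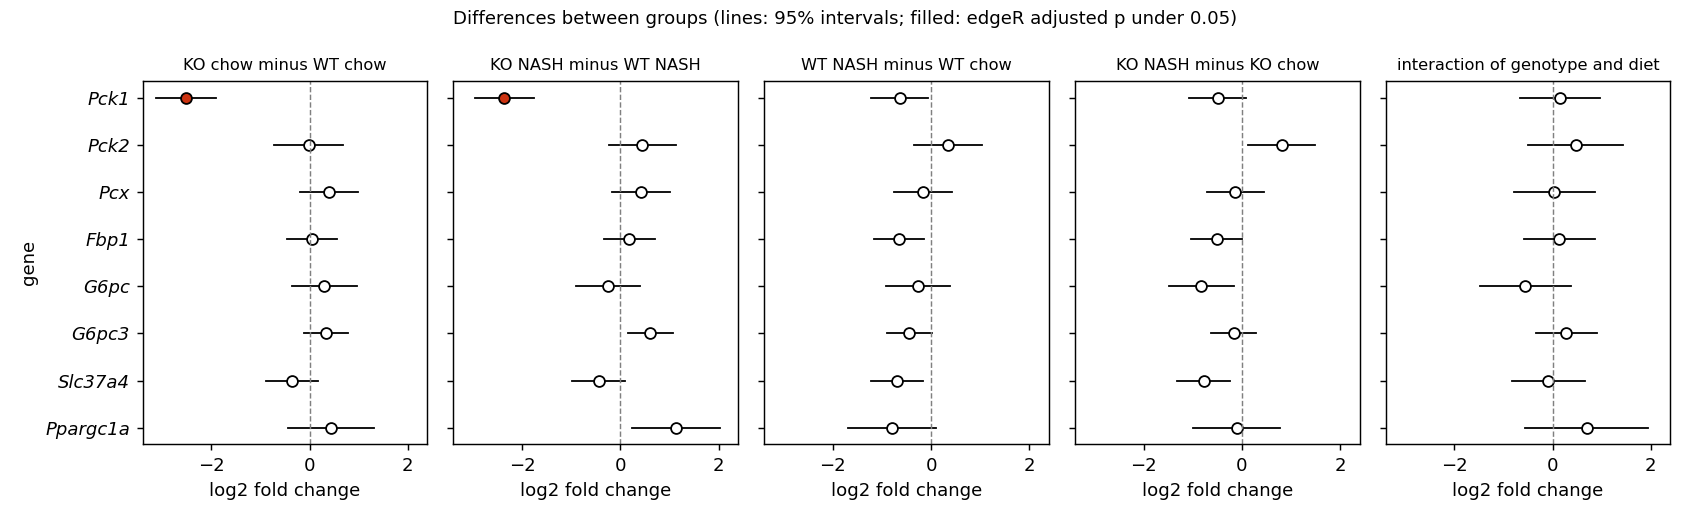
Log2 fold changes (horizontal axes) of the 8 genes in the 4 comparisons and the interaction; points are estimates, lines 95% intervals, filled points edgeR adjusted p under 0.05. Only Pck1 in the genotype comparisons is filled, at -2.51 and -2.36.

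Pcx, which supplies oxaloacetate, lies on chromosome 19 at 4510472 to 4621752 (plus strand), with Lrfn4 on the opposite strand. Replicates 1 to 5 of WT chow were at 672, 603, 478, 462 and 392 CPM, and WT NASH livers were at 645, 446, 487, 249.5 and 501 CPM. KO chow had 990.3, 917, 730.2, 415 and 370.2 CPM, and KO NASH 611, 495, 673, 670.5 and 671 CPM. The groups overlapped, and in each group that held both kinds of library the livers with a negative length slope were the lowest. In WT chow those 3 were at 392 to 478 CPM and the other 2 at 603 to 672 CPM. In KO chow those 2 were at 370.2 to 415 CPM and the other 3 at 730.2 to 990.3 CPM. The single such WT NASH liver, also the only male of its group, was at 249.5 CPM and the other 4 at 446 to 645 CPM.

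The difference of Pcx between genotypes on chow was 0.39 (SE 0.281, 95% interval -0.19 to 0.98, edgeR adjusted p = 0.476). With the length slope as a term of the fit it was 0.07, and within the positive-slope libraries 0.47. For mice on the NASH diet, it was 0.42 (SE 0.281, 95% interval -0.16 to 1.01, edgeR adjusted p = 0.364). Males alone, with 1 WT NASH liver, gave 1.43 where the median of all genes was 0.19, and females alone gave -0.04. None of these was called by edgeR. limma voom with quality weights called Pcx higher in KO chow (0.79, adjusted p = 0.01, with alternatives between 0.01 and 0.822). In that comparison limma voom called 40.4% of all genes.

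**Figure D3:**
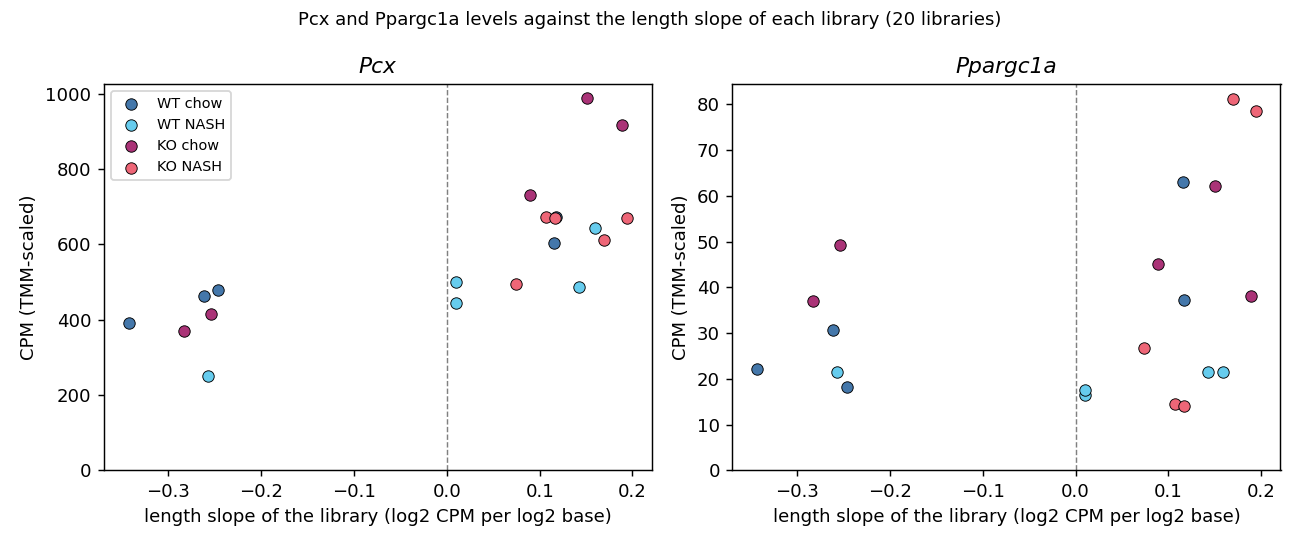
Pcx and Ppargc1a in CPM (vertical axes) against the length slope of each library in log2 CPM per log2 base (horizontal axes), 1 point for each of 20 livers coloured by group. The 6 livers left of 0 have Pcx at 249.5 to 478 CPM, and the 14 to the right at 446 to 990.3 CPM.

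Fbp1 lies on chromosome 13 at 62864753 to 62888282 (minus strand). Among WT chow livers, replicates 1 to 5 were at 1016, 877, 961, 796 and 1627 CPM, and WT NASH livers were at 708, 777, 834, 419.9 and 621 CPM. KO chow had 1044, 856, 1084, 1673 and 796 CPM, and KO NASH 711, 909, 751, 765 and 686 CPM. On chow each genotype held 1 liver far above its other 4, replicate 5 of WT and replicate 4 of KO. Genotype differences were 0.05 on chow (95% interval -0.47 to 0.56) and 0.19 on the NASH diet (95% interval -0.33 to 0.70).

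G6pc, the catalytic subunit in liver, lies on chromosome 11 at 101367561 to 101377903 (plus strand). Levels in WT chow were 309, 400.2, 617, 301 and 453 CPM, and WT NASH livers were at 358, 259, 347, 344 and 412 CPM. KO chow had 434, 296, 763, 872 and 201 CPM, and KO NASH 328, 250.6, 286, 273 and 308 CPM. KO chow spanned the lowest and the highest of all 20 livers, with a coefficient of variation of 57.0%, while KO NASH had 10.5%. Genotype differences were 0.30 on chow (95% interval -0.35 to 0.96) and -0.25 on the NASH diet (95% interval -0.90 to 0.40), and the interaction was -0.55 (SE 0.444, edgeR adjusted p = 0.831).

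G6pc3, the widely expressed paralog, lies on the same chromosome at 102189620 to 102194081 (plus strand). WT chow replicates 1 to 5 had 3.55, 4.66, 3.18, 5.70 and 5.89 CPM, and WT NASH livers were at 4.33, 3.26, 3.45, 3.38 and 2.52 CPM. KO chow had 5.84, 6.43, 6.44, 4.07 and 6.14 CPM, and KO NASH 5.29, 3.93, 6.27, 4.89 and 5.53 CPM. Under the NASH diet 4 of 5 KO livers were above all 5 WT livers, the exception being KO replicate 2. That difference was 0.61 (SE 0.217, 95% interval 0.16 to 1.06, edgeR adjusted p = 0.0794) and missed the threshold. It was called by DESeq2 (0.60, adjusted p = 0.0426), by limma voom (0.64, adjusted p = 0.0119) and by edgeR in the positive-slope libraries (0.61, adjusted p = 0.0322), with alternatives between 0.0119 and 0.987.

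Slc37a4, the glucose-6-phosphate transporter, lies on chromosome 9 at 44396852 to 44402968 (plus strand), and Mir7085 lies within it. WT mice on chow (replicates 1 to 5) had levels of 175, 242, 246, 201 and 319.7 CPM, and WT NASH livers were at 139, 117, 181, 153 and 142 CPM. KO chow had 148, 112, 250.5, 252 and 162 CPM, and KO NASH 138, 66.8, 80.6, 116 and 137 CPM. The lowest values of all 20 livers were those of KO NASH replicates 2 and 3, and the groups overlapped in each comparison. KO against WT gave -0.36 on chow (95% interval -0.89 to 0.17) and -0.44 on the NASH diet (95% interval -0.98 to 0.09).

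Ppargc1a lies on chromosome 5 at 51454250 to 51567726 (minus strand) and overlaps 4 predicted genes, 1 of them on the opposite strand. The 5 WT chow livers were at 37.2, 63.0, 18.1, 30.6 and 22.2 CPM, and WT NASH livers were at 21.5, 16.6, 21.5, 21.5 and 17.6 CPM. KO chow had 62.3, 38.1, 45.1, 49.2 and 37.1 CPM, and KO NASH 81.2, 26.7, 14.6, 14.1 and 78.6 CPM. KO NASH replicates 1 and 5, the most alike pair of libraries, were the highest of all 20 livers, and replicates 3 and 4 of the same group were the lowest. The WT NASH livers stayed within 16.6 to 21.5 CPM. On the NASH diet KO exceeded WT by 1.13 (SE 0.429, 95% interval 0.23 to 2.02, edgeR adjusted p = 0.101), which was not called. Without KO NASH replicate 4 it was 1.35 and called (edgeR adjusted p = 0.047, with alternatives between 0.047 and 0.804). Without KO NASH replicate 1 or 5 it was 0.78 or 0.80 and with these 2 summed into 1 sample 0.79. With the length slope as a term it was 0.90, and with sex and length slope as terms 0.63, neither called by edgeR. On chow the difference was 0.44 (95% interval -0.45 to 1.32), and -0.03 in the positive-slope libraries.

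Diet was compared within each genotype. Of the 8 genes, 0 were called by edgeR in WT NASH against WT chow, where 5.93% of all genes were (2.69% higher, 3.24% lower), and 0 in KO NASH against KO chow, where 3.29% were (1.77% higher, 1.52% lower). The groups overlapped for all 8 in both, while they did not for 6.15% of all genes in WT and 8.5% in KO. At an unadjusted p under 0.05 there were 3 in each. DESeq2 called 0 and 1, where it called 10.4% and 9.04% of all genes. limma voom with quality weights called 2 and 0, where it called 40.6% and 12.7% of all genes. The median of the 8 was -0.54 in WT and -0.33 in KO, beside 0.010 and -0.023 for all genes, and 7 of 8 estimates were negative in each genotype, Pck2 being the exception. The comparisons share groups: WT chow and KO chow each enter a genotype and a diet comparison, as do the NASH groups, so these values are not independent of those above.

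Slc37a4 had the lowest adjusted p of the 8 for diet in each genotype. It differed by -0.69 in WT (SE 0.256, 95% interval -1.23 to -0.16, edgeR adjusted p = 0.114) and by -0.78 in KO (SE 0.256, 95% interval -1.31 to -0.25, edgeR adjusted p = 0.0928). DESeq2 called it in KO (-0.80, adjusted p = 0.0295, with alternatives between 0.0295 and 0.724) and limma voom in WT (-0.78, adjusted p = 0.0164, with alternatives between 0.0164 and 0.56). Fbp1 differed by -0.65 in WT (SE 0.247, edgeR adjusted p = 0.124) and -0.51 in KO (SE 0.247, edgeR adjusted p = 0.227). limma voom called Fbp1 in WT (-0.53, adjusted p = 0.0273, with alternatives between 0.0273 and 0.363). G6pc differed by -0.27 in WT and -0.83 in KO (SE 0.316, edgeR adjusted p = 0.136), and Pck1 by -0.64 in WT (SE 0.276, edgeR adjusted p = 0.177) and -0.49 in KO (SE 0.276, edgeR adjusted p = 0.29). Pcx differed by -0.16 in WT and -0.13 in KO, and with the length slope as a term it was called lower in WT NASH (-0.52, edgeR adjusted p = 0.0375, with alternatives between 0.0375 and 0.988). Sex and diet cannot be told apart in WT beyond 1 male WT NASH liver.

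The interaction asks whether the knockout difference depends on diet. edgeR called 0 of the 8, where 0.139% of all genes were called (0.0554% higher, 0.0831% lower), with 0 at an unadjusted p under 0.05. DESeq2 and limma voom also called 0 of the 8, beside 1.31% and 13.5% of all genes. Estimates ran from -0.55 (G6pc) to 0.69 (Ppargc1a, 95% interval -0.55 to 1.94). An interval of that width does not show that the genotype difference was alike on the diets.

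Genes around the pathway were read from lists and are given by counts and medians. These can be set beside the called shares and medians of all genes above. Counts by DESeq2 and limma voom belong beside their own shares, not those of edgeR. Substrate entry held 18 genes for lactate, alanine, glycerol and the mitochondrial shuttles. In KO chow 3 rose (Ldhb, Mdh2 and Slc25a10) and 15 were not called, with a median of 0.26, and in KO NASH 3 rose (Mdh2, Slc25a10 and Slc25a11) with a median of 0.39. Mdh2, the mitochondrial malate dehydrogenase that works on the oxaloacetate made by Pcx, was at 114 ± 24.9 CPM in WT chow compared with 227 ± 59.8 CPM in KO chow (n = 5 each). It rose by 0.99 on the log2 scale (SE 0.202, edgeR adjusted p = 0.00723), every KO liver was above every WT liver, and the call was lost when only the 2 groups entered the fit. Slc25a10, the mitochondrial dicarboxylate carrier, was at 97.7 ± 31.6 CPM in WT NASH compared with 226 ± 41.3 CPM in KO NASH (1.21, SE 0.228, edgeR adjusted p = 0.00271), again without overlap. For mice on the NASH diet, 1 gene fell in WT, the glycerol kinase Gk, from 333 ± 105 to 166 ± 19.9 CPM (-1.002, SE 0.253, edgeR adjusted p = 0.0242), and 1 in KO, Ldhb, with list medians of -0.32 and -0.37. The Gk call was lost without replicate 3 or 4 of WT chow or replicate 1, 2 or 5 of WT NASH, edgeR adjusted p reaching 0.072.

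The reversible steps shared with glycolysis were read from 7 genes. In KO chow 3 rose (Aldoa, Eno1 and Pgam1), all 7 estimates were positive and the median was 0.76, and in KO NASH 1 rose (Aldoa), with a median of 0.38. Aldoa, an aldolase typical of muscle, was at 57.5 ± 2.77 CPM in WT NASH compared with 125 ± 32.5 CPM in KO NASH (1.12, SE 0.25, edgeR adjusted p = 0.00876), without overlap. Pgam1, phosphoglycerate mutase, was at 10.2 ± 4.92 CPM in WT chow compared with 23.9 ± 10.9 CPM in KO chow (1.22, SE 0.356, edgeR adjusted p = 0.0473). That call was lost on leaving out any of 15 libraries, all but WT chow replicates 1 and 2, WT NASH replicates 3 and 4 and KO chow replicate 5, edgeR adjusted p reaching 0.159. The list medians for diet were -0.54 in WT and -0.51 in KO, and edgeR called 0 in each genotype, with 4 and 3 at an unadjusted p under 0.05, 1 and 1 by DESeq2 and 5 and 0 by limma voom.

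Glycolytic genes that oppose gluconeogenesis, with genes that regulate them, were read from 13 genes. Of these, 1 rose and 1 fell in KO chow (Pfkp; Gckr) and 1 rose and 1 fell in KO NASH (Pfkp; Pklr). The list medians were 0.060 and 0.0086. Gckr encodes the glucokinase regulatory protein, which is not itself a glycolytic enzyme. It was at 107.5 ± 31.1 CPM in WT chow compared with 45.7 ± 18.8 CPM in KO chow, and every KO liver was below every WT liver (-1.23, SE 0.301, edgeR adjusted p = 0.0213). That call was lost without WT chow replicate 5 or replicate 1 or 2 of KO chow (edgeR adjusted p reaching 0.0681), within the positive-slope libraries and when only the 2 groups entered the fit.

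KO NASH replicates 1 and 5, which had the highest Ppargc1a, also had Ppp1r3g at 13.5 and 14.7 CPM against 0.527 to 5.46 CPM in the other 3 livers of their group, and Nr0b2 at 3.16 and 4.26 CPM against 5.40 to 16.9 CPM. These livers were singled out after their values were seen, and nothing in the labels sets them apart. Their length slopes, 0.169 and 0.194, were the highest of their group, the other 3 livers lying at 0.0741 to 0.117.

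Pklr, the liver pyruvate kinase that runs against the Pck1 step, was at 140.4, 166, 129.9, 47.2 and 124 CPM in WT NASH replicates 1 to 5 and at 15.1, 22.7, 13.9, 34.98 and 12.4 CPM in KO NASH. The groups did not overlap (-2.62, SE 0.389, edgeR adjusted p = 0.000465), and the lowest WT liver was replicate 4, the male. In male livers alone, with that 1 WT NASH liver, the difference in Pklr was -1.27 (edgeR adjusted p = 0.0981, with alternatives between 1.61e-09 and 0.0981), and the call was lost there and among the female livers. Pfkp, a phosphofructokinase of platelets and other tissues, was at 3.21 ± 0.987 CPM in WT chow compared with 8.47 ± 3.01 CPM in KO chow (1.40, SE 0.326, edgeR adjusted p = 0.017), and at 4.59 ± 0.47 CPM in WT NASH compared with 10.1 ± 4.84 CPM in KO NASH (1.14, SE 0.321, edgeR adjusted p = 0.0301). The first call was lost without KO chow replicate 1 (edgeR adjusted p = 0.0545, with alternatives between 0.00123 and 0.0803) and in the positive-slope libraries. The second was lost without replicate 2, 3, 4 or 5 of WT NASH or replicate 1 or 5 of KO NASH (edgeR adjusted p reaching 0.0941). With diet 1 gene of this list rose in WT and 1 in KO, and none fell by edgeR, with medians of 0.36 and 0.25. Pklr went from 40.2 ± 12.3 to 121.5 ± 44.5 CPM in WT (1.60, SE 0.375, edgeR adjusted p = 0.0158), with overlapping groups. In KO chow Pklr averaged 16.7 ± 8.83 CPM, below WT chow. That genotype difference had an unadjusted edgeR p under 0.05 but was not called, and the groups overlapped. Pfkl, the liver phosphofructokinase, went from 17.5 ± 3.75 to 34.5 ± 3.32 CPM in KO (0.98, SE 0.214, edgeR adjusted p = 0.0202), a call lost without replicate 1 or 5 of KO chow (edgeR adjusted p reaching 0.0555).

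The glycogen list held 12 genes, with 2 up and 3 down in KO chow (Gys2 and Pgm1; Ppp1r3b, Ppp1r3c and Pygl) and 3 up and 3 down in KO NASH (Gys2, Pgm1 and Ppp1r3g; Ppp1r3b, Ppp1r3c and Pygl), with medians of 0.39 and 0.16. Ppp1r3b, Ppp1r3c and Ppp1r3g encode subunits that bring protein phosphatase to glycogen, and Pygl is the liver glycogen phosphorylase. Ppp1r3b was at 493, 395, 513, 208 and 475 CPM in WT NASH replicates 1 to 5 and at 43.6, 106, 54.5, 174 and 38.6 CPM in KO NASH. All KO livers were below all WT livers (-2.32, SE 0.435, edgeR adjusted p = 0.00252), a call lost within each sex (edgeR adjusted p reaching 0.165, with log2 values from -2.78 to -1.39 over the alternatives). In WT chow it was at 84.5 ± 25.9 CPM, below WT NASH (2.30, SE 0.435, edgeR adjusted p = 0.00379), and in KO chow at 22.8 ± 11.8 CPM, below KO NASH (1.87, SE 0.43, edgeR adjusted p = 0.025). The last call was lost without replicate 1 or 4 of KO chow or replicate 2 or 4 of KO NASH (edgeR adjusted p reaching 0.0749). Ppp1r3c was at 35.4 ± 7.15 CPM in WT chow compared with 9.15 ± 6.86 CPM in KO chow (-1.96, SE 0.429, edgeR adjusted p = 0.0116), a call lost when only the 2 groups entered the fit. Pgm1, of the phosphoglucomutase family, was at 5.83 ± 1.60 CPM in WT chow compared with 15.6 ± 6.98 CPM in KO chow (1.42, SE 0.319, edgeR adjusted p = 0.0131), not called without KO chow replicate 2 (edgeR adjusted p = 0.0504, the highest of a range from 0.000692).

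Ppp1r3g was called in 3 comparisons, with calls that rested on few livers. In KO chow against WT chow it had an unadjusted edgeR p under 0.05 but was not called by edgeR. It was at 9.34 ± 7.71 CPM in WT chow, 1.15 ± 0.384 CPM in WT NASH, 41.6 ± 22.5 CPM in KO chow livers and 7.66 ± 6.19 CPM in KO NASH livers. It rose in KO NASH against WT NASH (2.70, SE 0.715, edgeR adjusted p = 0.022) and fell with diet in WT (-2.99, SE 0.719, edgeR adjusted p = 0.0171) and in KO (-2.44, SE 0.65, edgeR adjusted p = 0.0441). The first call was lost without WT NASH replicate 5 or replicate 1 or 5 of KO NASH (edgeR adjusted p reaching 0.0632) and the second without WT NASH replicate 5 (edgeR adjusted p = 0.0517, with alternatives between 0.000155 and 0.367). The third was lost on leaving out any of 13 libraries, all but those of WT chow, WT NASH replicate 4 and KO chow replicate 5 (edgeR adjusted p reaching 0.102). With diet 2 genes of the list fell in each genotype, Gys2 and Ppp1r3g, and Ppp1r3b rose, with medians of 0.47 in WT and 0.14 in KO.

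**Figure D4:**
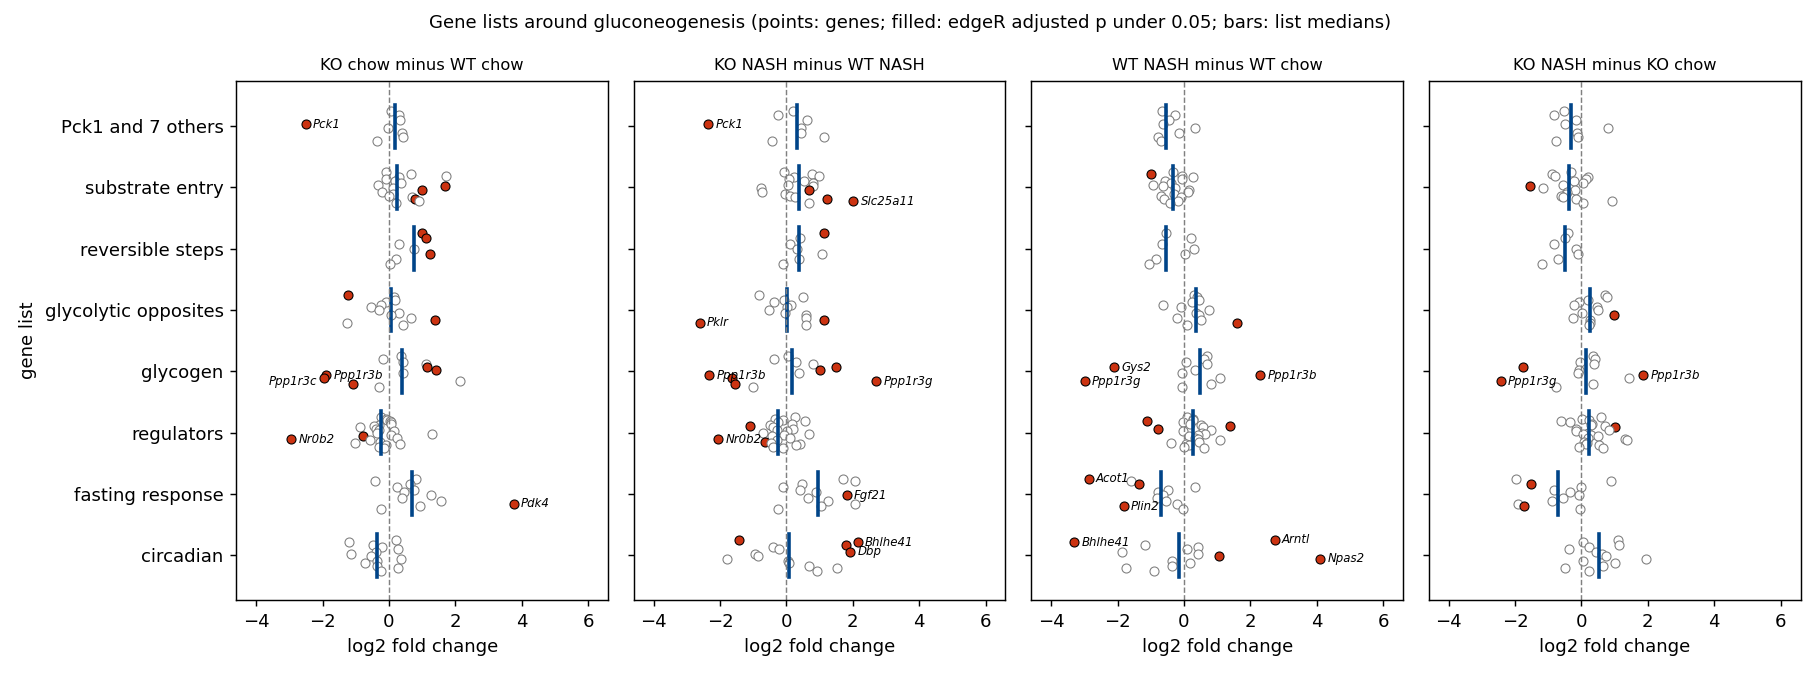
Log2 fold changes (horizontal axes) of the genes of each list (rows) in the 4 comparisons; points are genes, filled where the edgeR adjusted p is under 0.05, vertical bars are list medians, and called genes past 1.8 in size are named. In the genotype comparisons Pck1 is the only filled point of its row, while the glycogen row has 5 filled points on chow and 6 on the NASH diet.

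The regulators of gluconeogenesis were read from 25 transcription factors, hormone receptors and cofactors. edgeR called 5.53% of all genes on chow and 9.65% on the NASH diet. In KO chow 0 rose and 2 fell (Klf15 and Nr0b2), with a median of -0.24, and in KO NASH 0 rose and 3 fell (Foxo1, Nr0b2 and Nr3c1), with a median of -0.25. At an unadjusted p under 0.05 there were 4 and 7. DESeq2 called 3 and 5, where it called 9.63% and 15.2% of all genes. limma voom called 8 and 6, where it called 40.4% and 23.8% of all genes. Nr0b2, the repressor SHP, was at 28.7 ± 16.0 CPM in WT chow compared with 3.76 ± 3.38 CPM in KO chow (-2.94, SE 0.664, edgeR adjusted p = 0.0139), and at 38.6 ± 22.9 CPM in WT NASH compared with 9.20 ± 6.80 CPM in KO NASH (-2.06, SE 0.637, edgeR adjusted p = 0.0448). On chow the highest KO liver, at 9.11 CPM, was above the lowest WT liver, at 8.56 CPM, and the call was lost in the positive-slope libraries. For mice on the NASH diet, it was lost on leaving out any of 10 libraries, replicate 3 or 5 of WT chow, replicate 2, 4 or 5 of WT NASH, replicate 3 or 4 of KO chow, or replicate 1, 3 or 5 of KO NASH (edgeR adjusted p reaching 0.133).

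With diet 1 regulator rose and 2 fell in WT (Foxo1; Creb3l3 and Gcgr), and 1 rose in KO (Foxo3), with medians of 0.28 and 0.24. Foxo1, the insulin-controlled activator of G6pc and Pck1, went from 36.1 ± 11.6 to 93.6 ± 20.9 CPM in WT (1.37, SE 0.28, edgeR adjusted p = 0.00664). Creb3l3, a liver factor of the CREB family, went from 508 ± 119 to 234 ± 32.7 CPM (-1.12, SE 0.197, edgeR adjusted p = 0.00217) and was not called in the positive-slope libraries. Foxo3 in KO went from 25.1 ± 7.94 to 51.0 ± 11.5 CPM (1.02, SE 0.279, edgeR adjusted p = 0.0484), lost on leaving out any of 13 libraries, all but those of WT chow, WT NASH replicate 4 and KO chow replicate 3 (edgeR adjusted p reaching 0.118).

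Fasting-response genes, which liver switches on together with gluconeogenesis, numbered 12. In each genotype comparison edgeR called 1 higher and 0 lower, beside 5.53% of all genes called on chow and 9.65% on the NASH diet. At an unadjusted p under 0.05 there were 5 and 7. DESeq2 called 1 and 5, where it called 9.63% and 15.2% of all genes. limma voom called 5 and 6, where it called 40.4% and 23.8% of all genes. The medians were 0.68 on chow and 0.95 on the NASH diet, and 10 of 12 estimates were positive in each. Pdk4 encodes a kinase that holds back pyruvate oxidation. Among WT chow livers, replicates 1 to 5 were at 12.1, 12.2, 15.5, 19.6 and 6.03 CPM, and KO chow livers were at 327, 426, 22.1, 40.1 and 67.9 CPM. All KO livers were above all WT livers, and KO replicates 1 and 2 stood far above the other 3 (3.76, SE 0.699, edgeR adjusted p = 0.004, with a highest value of 0.0291 over the alternatives). On the NASH diet Pdk4 was at 11.3 ± 3.31 CPM in WT compared with 47.2 ± 41.6 CPM in KO, again without overlap. That difference had an unadjusted edgeR p under 0.05 but was not called. Fgf21, a liver-made hormone, was at 3.24 ± 1.93 CPM in WT NASH compared with 11.8 ± 7.06 CPM in KO NASH (1.82, SE 0.561, edgeR adjusted p = 0.0423), lost without WT chow replicate 3, replicate 2, 3 or 5 of WT NASH, or any KO NASH liver (edgeR adjusted p reaching 0.137).

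On the NASH diet 3 fasting-response genes fell in WT (Acot1, Asl and Plin2) and 2 in KO (Asl and Plin2), with medians of -0.71 and -0.70, and none rose by edgeR. Acot1, an acyl-CoA thioesterase, went from 149.9 ± 80.4 to 20.4 ± 17.3 CPM in WT (-2.87, SE 0.608, edgeR adjusted p = 0.00864) and was not called in the positive-slope libraries. Plin2, a coat protein of lipid droplets, went from 2150 ± 1297 to 652 ± 204 CPM in KO (-1.72, SE 0.406, edgeR adjusted p = 0.0287). That call was lost without replicate 1, 4 or 5 of KO chow or replicate 1, 2, 4 or 5 of KO NASH (edgeR adjusted p reaching 0.0828).

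Clock genes were counted because gluconeogenic transcription follows the time of day, which the labels do not give. Of 14, 0 were called by edgeR in KO chow (2 at an unadjusted p under 0.05, 1 by DESeq2, 2 by limma voom) and 0 with diet in KO (5, 2 and 3). In KO NASH against WT NASH 3 rose and 1 fell (Bhlhe41, Ciart and Dbp; Arntl), and in WT NASH against WT chow 3 rose and 1 fell (Arntl, Nfil3 and Npas2; Bhlhe41). The list medians were -0.36 and 0.066 for genotype on chow and on the NASH diet, and -0.14 and 0.53 for diet in WT and KO. Arntl, the core activator BMAL1, was at 4.80, 3.79, 1.99, 2.37 and 1.59 CPM in WT chow replicates 1 to 5 and at 28.1, 14.4, 12.8, 26.8 and 16.3 CPM in WT NASH. KO chow had 2.83, 4.02, 3.91, 4.14 and 2.07 CPM, and KO NASH 8.36, 5.56, 5.46, 5.70 and 11.5 CPM. All WT NASH livers were above all livers of the other 3 groups (2.73 against WT chow, SE 0.337, edgeR adjusted p = 9.4e-05, and -1.42 for KO NASH against WT NASH, SE 0.316, edgeR adjusted p = 0.0088). Dbp, an output gene of the clock, was at 15.7 ± 13.05 CPM in WT NASH compared with 59.6 ± 18.0 CPM in KO NASH (1.92, SE 0.563, edgeR adjusted p = 0.036), lost without replicate 4 or 5 of WT NASH or any KO NASH liver (edgeR adjusted p reaching 0.083). The part of sampling time in the levels of the gluconeogenic genes was not tested.

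Sex was uneven between the groups, and 12 of the 32 calls given for single genes of these lists were lost with sex as a term. They were Gk, Pklr, Ppp1r3b, Ppp1r3g and Foxo1 for diet in WT, Aldoa, Pfkp, Ppp1r3g, Nr0b2 and Dbp for genotype on the NASH diet, Foxo3 for diet in KO, and the interaction of Bhlhe41. No call of the 8 gluconeogenic genes was lost or gained with that term. In male livers alone, with 1 WT NASH liver, 18 calls were lost. Female livers alone, with 1 KO NASH liver, could be fitted only for KO NASH against WT NASH and against KO chow. All 16 calls followed there were lost, that of Pck1 on the NASH diet among them. In the positive-slope libraries 7 calls were lost, those of Pgam1, Pfkp, Gckr and Nr0b2 for genotype on chow and of Gk, Creb3l3 and Acot1 for diet in WT. With KO NASH replicates 1 and 5 summed, 10 were lost: Pgam1 in KO chow, Pfkp, Ppp1r3g, Nr0b2, Fgf21 and Dbp for genotype on the NASH diet, Ppp1r3g, Foxo3 and Plin2 for diet in KO, and the interaction of Bhlhe41.

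The genes most like Pck1 were ranked by the root mean square difference of centred log2 CPM over the 20 livers, among 9529 tested genes averaging 5 CPM or more. The 5 nearest were Cyp2c44 (0.62), Lect1 (0.73), Tk1 (0.75), Tmie (0.82) and Cyp2d40 (0.83), where the median of all compared genes was 1.38. Cyp2c44, a cytochrome P450 of a multigene family whose counts may be split between paralogs, was at 278 ± 68.7 CPM in WT chow, 207 ± 73.2 CPM in WT NASH, 94.3 ± 28.4 CPM in KO chow livers and 71.2 ± 7.44 CPM in KO NASH livers. These genes were chosen for their likeness to Pck1 over the same livers, so their levels are a description. Of the other gluconeogenic genes, Slc37a4 was at rank 235 (1.07), G6pc at 2412 (1.27) and Fbp1 at 3722 (1.33), nearer to Pck1 than the median gene. Pcx at 7319 (1.52) and Ppargc1a at 8477 (1.64) were further away than the median gene. Pck2 and G6pc3 had means under 5 CPM and were not ranked.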

How the data were processed

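Per the labels' protocols, whole RNA came from a Trizol extraction and was checked on a Bioanalyzer before Illumina library preparation. HISAT2 2.0.4 and GRCm38 are named in the submitters' processing notes. Counter, annotation and strand setting: not given in the sources used here. Raw counts by symbol fill the deposited table, with 1 column per mouse, whose HFD columns were matched to the NASH groups, as the remaining columns name chow.

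Counts were fitted in edgeR 4.0.16 (R 4.3.3) with TMM scaling and the filterByExpr filter (minimum count 10). The tested genes held 99.91% of all counts. The quasi-likelihood F test used 1 coefficient per group over all 20 libraries (common biological coefficient of variation 39%), with Benjamini-Hochberg adjustment over 14440 genes and calls under 0.05. The sources name no molecular identifiers. The 8 genes and all lists were chosen with earlier results of these data known, and some list genes are not reported here and were left out of their lists' counts. Single list genes with values are the called gene with the largest rise and that with the largest fall per list and comparison, at a mean of at least 5 CPM, any list gene called in the interaction, and the 5 genes most like Pck1. Length slopes used 9524 genes with GENCODE M21 lengths (matched for 93.5% of tested genes). Libraries with at least 100 Y-linked counts were taken as male. Alternatives were RLE size factors, TMM without the 20 most abundant genes, no filter, at least 5 CPM, DESeq2 1.42.0, limma 3.58.1 voom with quality weights, only the groups compared, a replicate block, sex and slope terms, each sex alone, KO NASH replicates 1 and 5 summed, and each library left out. Fits to positive-slope libraries were chosen after seeing the data. On simulated counts 90.5% (genotype on chow), 89.5% (genotype on the NASH diet), 87% (each diet comparison) and 64.5% (interaction) of 200 genes changed 4-fold were recovered.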

Additional observations from a re-analysis of the deposited data

Results flagged for a closer look

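Each of the 8 genes was checked in each of the 4 groups for a liver far from the other 4, in 32 tests of which chance marks about 1 in 20. Fbp1 in WT chow replicate 5 was at 1627 CPM, with the others at 796 to 1016 CPM, so that the gap took up 0.736 of the range of the group. G6pc3 in KO chow replicate 4 was at 4.07 CPM, with the others at 5.84 to 6.44 CPM (0.747 of the range). Both livers had a negative length slope. Without WT chow replicate 5 the diet difference of Fbp1 in WT was -0.44 in place of -0.65, and without KO chow replicate 4 the genotype difference of G6pc3 on chow was 0.43 in place of 0.33, none of them called by edgeR.

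Bhlhe41, a repressor of the circadian clock, was the only gene of the lists whose interaction was called by edgeR (3.36, SE 0.655, edgeR adjusted p = 0.0423). It was at 8.17 ± 2.65 CPM in WT chow, 0.838 ± 0.386 CPM in WT NASH, 3.53 ± 2.401 CPM in KO chow and 3.67 ± 1.68 CPM in KO NASH (n = 5 each). The call was lost on leaving out any of 16 libraries, all but WT NASH replicate 4, KO chow replicate 5 and KO NASH replicates 2 and 5, edgeR adjusted p reaching 0.0936. DESeq2 called the interaction of 3 clock genes and of 0 genes in the other lists, beside 1.31% of all genes. limma voom called 4 regulators, 3 genes of substrate entry, 1 fasting-response gene, 1 isoform of other tissues and 0 glycolytic genes. It called 2 in each of the reversible, glycogen and clock lists, beside 13.5% of all genes.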

How the results depend on the processing

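Of 1374 values of the 8 genes under the alternatives, 1364 kept their side of the threshold, 1 lost and 9 gained a call, and no called value changed sign. In KO chow against WT chow limma voom called 2 of the 8. In KO NASH against WT NASH DESeq2, limma voom and the positive-slope libraries called 2, females alone (1 KO liver, assumed to vary like the rest) called 0, with Pck1 at -2.21 (edgeR adjusted p = 0.176, the highest, the lowest being 2.19e-16), and leaving out 1 library called 1 to 2. In WT NASH against WT chow limma voom called 2 and the slope term 1, and in KO NASH against KO chow DESeq2 called 1. The causes were not tested. Females alone could not be fitted for comparisons with WT chow or the interaction, nor male positive-slope libraries for those with WT NASH. Of 1114 values of the 32 list-gene calls, 205 lost the call and none reversed, including 18 in males alone and 9 when only the groups compared were fitted. Over all genes the called share ranged from 2.2% to 40.4% in KO chow against WT chow and from 0.138% to 23.8% in KO NASH against WT NASH, limma voom giving the highest.

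Same-numbered mice of different groups formed 30 pairs, with r from -0.41 to 0.52 and 13 pairs over 0.1. The median was 0.0534, against -0.0245 for other pairs, and 6 of 20 libraries were closest to their own number. With the replicate block the counts of the 8 genes called were 1, 1, 0, 0 and 0 for the 4 comparisons and the interaction, as without it. With it 3 calls of single list genes were lost, those of Ppp1r3g and Foxo3 for diet in KO and the interaction of Bhlhe41, and over all genes the interaction had 4 calls in place of 20. Depth limits Pck2 and G6pc3 most, at 18 to 182 and 23 to 160 counts per library.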

Other observations

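Isoforms of other tissues were near the floor of detection. G6pc2, the glucose-6-phosphatase of pancreatic islets, had 1 count in KO chow replicate 2 and 0 counts in the other 19 livers. Fbp2, the muscle bisphosphatase, had 3 to 16 counts per WT liver on chow and 0 to 4 on the NASH diet, while KO livers had 11 to 44 and 5 to 22 counts. It was called higher in KO NASH than in WT NASH by 3.35 on the log2 scale (SE 0.846, edgeR adjusted p = 0.0147), and WT NASH was lower than WT chow (-3.08, SE 0.88, edgeR adjusted p = 0.0352). It lies under the level set for naming genes and was named after its values were seen.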
